A study of Saccharomyces cerevisiae with 12 samples.

Results

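The 105 spots described here were those whose mRNA stood high both early and late in Congo Red and whose synthesis rate stood high late, out of 3574 spots that could be chosen, or 2.94%. They were taken from the authors' deposited table, which gives 1 mRNA abundance and 1 synthesis rate per spot and time. A spot could be chosen when it had a value in all 12 columns, as 4468 of the 6144 spots did, and when its mean mRNA abundance lay above the 20th percentile of those spots. Its change at a time was the log2 ratio to 0 min less the median ratio of the 3574 spots. A member was among the 300 highest for the mean mRNA change at 120, 180 and 240 min (the late mRNA change), among the 300 highest for the mean mRNA change at 30 and 60 min (the early mRNA change), and among the 300 highest for the mean change in synthesis rate at 120, 180 and 240 min (the late synthesis change).

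Budding yeast of the laboratory strain BY4741 (Saccharomyces cerevisiae) was sampled, which carries deletions of several biosynthetic genes used as selection markers and is given as wild type in the labels. All 12 groups shared this strain and a rich medium with glucose, and they differed in assay and in time with Congo Red at 30 µg/ml: 0, 30, 60, 120, 180 or 240 min, with the 0 min sample taken as reference. Each group had 3 replicate arrays, which makes 36 arrays. No dye-free culture was followed past 0 min, so the dye and time in culture cannot be told apart. Whether the replicates came from separate cultures is not stated in the labels, and p-values here reflect the scatter of arrays, which may be technical. The samples were whole cultures, in which fewer cells with a transcript and less of it per cell cannot be told apart.

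Congo Red is a dye with affinity for chitin that interferes with how the yeast cell wall is built. Wall damage is sensed by membrane proteins that act through the GTPase Rho1 and the kinase Pkc1 on a cascade ending in the MAP kinase Slt2, which activates transcription factors such as Rlm1, and genes for wall proteins and wall enzymes are known targets of this cell wall integrity pathway. The abundance of an mRNA depends on how fast it is made and how fast it is degraded. Genomic run-on measures the first of these: polymerases already engaged on genes are allowed to elongate with a labelled nucleotide in permeabilised cells, and the labelled RNA is hybridised to an array. mRNA abundance was measured on the same kind of array with labelled cDNA.

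The files name a spot by its block and its place within it and give no gene for it. Of the identifiers, 0 matched the reference table of 6477 genes. No gene, protein or promoter is therefore named here, the label of the strain could not be checked against its deleted genes, and whether members belong to the cell wall integrity pathway is not described. Spots are called by the identifier in the files, in which R is the block row, C the block column and the last number the printing position.

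An mRNA array had a total intensity of 387129 to 1660994 and a nascent array one of 512224 to 1880504, with 14.86% to 18.21% of its spots at 0. All 105 members had an intensity above 0 on all 36 arrays and so passed the filter in both assays, which left 4882 spots tested in mRNA and 5113 in nascent transcription. In the members, replicates 1 and 3 of the nascent arrays at 0 min stood apart in opposite directions. On replicate 3, 86.7% of the members lay above their own mean over the 0 min arrays, against 19.0% on replicate 1 and 41.9% on replicate 2.

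The values that chose the members are given as a description. In the deposited table the late mRNA change of the members ran from 0.65 to 3.46 on the log2 scale with a median of 1.18, and it was above 1 in 73 members, above 2 in 12 and above 3 in 3. Their late synthesis change ran from 0.50 to 2.41 with a median of 0.83, and it was above 1 in 36 and above 2 in 5. The early mRNA change ran from 0.44 to 2.29 with a median of 0.75, and it was above 1 in 28. Eligible spots just inside and just outside each limit hardly differed. The spot ranked 300 had a late mRNA change of 0.6517 and the next one 0.6514, the corresponding late synthesis changes were 0.4994 and 0.4984, and the early mRNA changes were 0.4331 and 0.4328. Among the members, 2 were in the last 50 ranks of late mRNA change, 9 in those of late synthesis change and 5 in those of early mRNA change.

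Over time, the mRNA of the members in the deposited table already stood above that of the typical eligible spot at 30 min, and relative to that spot it was highest at 180 min. The median log2 change relative to eligible spots was 0.63, 0.89, 1.14, 1.31 and 1.17 at the successive times of 30, 60, 120, 180 and 240 min. For synthesis rate the medians were lower, at 0.28, 0.59, 0.87, 0.87 and 0.83 in the same order. At 30 min the members had reached a median of 52.6% of their late mRNA change and 33.3% of their late synthesis change. At 60 min these shares were 73.5% and 65.0%. Synthesis at 30 and 60 min did not enter the rule except through the 0 min value that it shares with the late synthesis change, and it was below the typical eligible spot in 16 members at 30 min and in 3 at 60 min.

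**Figure D1:**
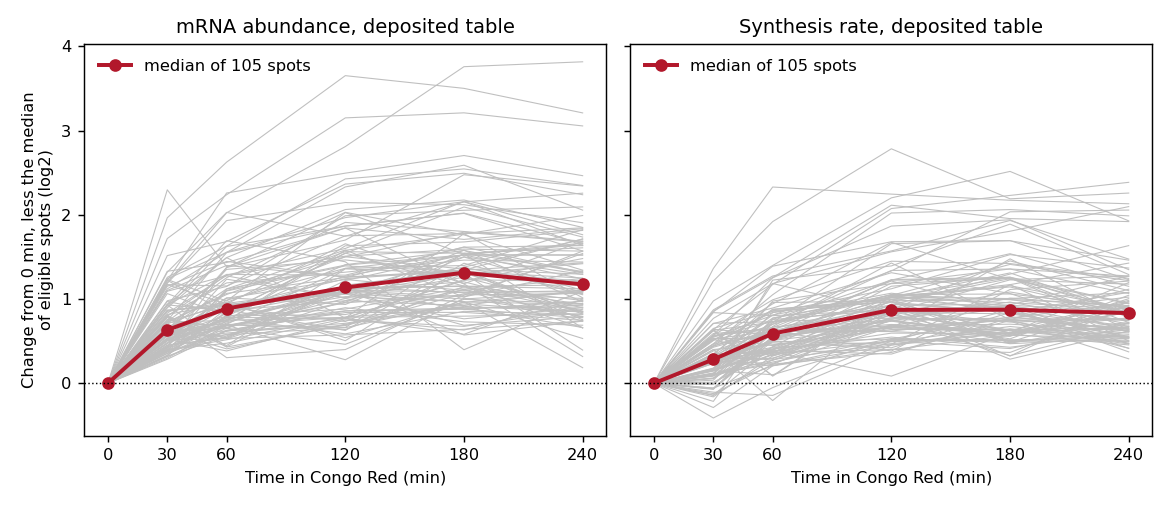
Change from 0 min in mRNA abundance (left) and synthesis rate (right), less the median of the 3574 eligible spots, on a log2 scale against time in Congo Red in minutes, from the deposited table. Each grey line is 1 of the 105 members and the red line is their median, which reaches 1.31 in mRNA and 0.87 in synthesis at 180 min.

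Single members differed in when they were highest, and the time depended on whether the eligible median was taken off. With it taken off, the highest mRNA change came at 180 min in 47 members, at 240 min in 32, at 120 min in 23, at 60 min in 2 and at 30 min in 1. The highest synthesis change came at 180 min in 47, at 120 min in 29, at 240 min in 28 and at 60 min in 1. The highest time was the same in both measures for 46 members, earlier in synthesis for 29 and earlier in mRNA for 30. A higher change at each successive time up to 180 min was seen in the mRNA of 45 members and in the synthesis rate of 39. In the values as deposited, with nothing taken off, the highest mRNA fell at 60 min in 57 members and at 120 min in 20, with 13, 8 and 7 at 30, 180 and 240 min. Synthesis rate as deposited was highest at 120 min in 59 members and at 60 min in 33, with 7, 2 and 4 at the other times. As deposited, 5 members in mRNA and 1 in synthesis had a higher value at every step to 180 min. These times come from single values per spot and time in which the authors had combined the replicates, so they carry no error.

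Both late scores chose the members, and the limit for mRNA was the higher one, 0.6517 against 0.4994, so their difference is given as values only. The late mRNA change exceeded the late synthesis change in 89 members and fell short of it in 16, with a median difference of 0.29 on the log2 scale. At 30 min the mRNA change was the larger in 95 members, with a median difference of 0.37, and at 60 min in 89, with a median difference of 0.34. Because the rule asked for a high early mRNA change and set no limit on early synthesis, the early differences lean this way by choice, as the late one does through the unequal limits. Across the 105 members the late changes in mRNA and synthesis had a Pearson correlation of 0.60 and a Spearman correlation of 0.48, given as a description of spots that share arrays and 0 min values. Over the 3574 eligible spots the Pearson correlation was 0.60 as well.

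Before the eligible median was taken off, the members' synthesis rate returned near its starting level while that of most spots went below theirs. The members' median synthesis rate relative to 0 min was 1.21, 1.41, 1.46, 1.08 and 1.01-fold at the successive later times. The median of all eligible spots was 0.991, 0.940, 0.799, 0.592 and 0.567-fold. At 240 min 49 of the 105 members were below their own 0 min synthesis rate, against 1 member at 120 min. Per the design text of the series, synthesis rate is nascent transcription normalised to cell volume, with factors of 1.17, 1.44 and 1.65 at 120, 180 and 240 min. When each late value was multiplied by its factor, the members' median synthesis was 1.71, 1.56 and 1.67-fold, and at 180 and 240 min 0 members stood under their 0 min value. With the factor, eligible spots that were not members had median synthesis of 0.929, 0.847 and 0.927-fold.

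mRNA abundance also stood lower late than at 60 min before the eligible median was taken off, and it stayed further above its start. The members' median mRNA relative to 0 min was 1.60, 1.88, 1.64, 1.64 and 1.42-fold at the successive later times. For all eligible spots it was 1.03, 1.02, 0.744, 0.658 and 0.632-fold. Whether the authors applied the volume factor to mRNA abundance is not given in the sources used here. With the factor applied, the members' median was 1.92, 2.35 and 2.35-fold at the last 3 times, and that of eligible non-members was 0.862, 0.939 and 1.03-fold.

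In level, the members began low in mRNA and near the middle in synthesis. At 0 min their mRNA abundance ran from 0.116 to 10.2 in the units of the deposited table, with a median of 0.950, against 2.11 for eligible spots, and only 30 of the 105 members lay above the eligible median. The median member stood at percentile 19.0 of eligible spots at 0 min and at percentile 57.2 at 240 min, when the medians were 1.60 and 1.36. In synthesis rate, the median member stood at percentile 44.7 at 0 min, with medians of 0.0909 and 0.101, and at percentile 75.5 at 240 min, with medians of 0.103 and 0.0565. A low 0 min value raises every score of the rule, so the starting levels are in part a result of the choice. The ratio of mRNA to synthesis, in the units of the table, is given as medians at 0, 30, 60, 120, 180 and 240 min. In the members it was 12.3, 17.3, 18.4, 13.9, 18.4 and 17.5. In eligible spots it was 23.8, 24.7, 26.2, 22.8, 26.9 and 27.1. Together the members held 0.801% of the summed mRNA abundance of eligible spots at 0 min and 2.37% at 180 min. They held 3.05% of the summed synthesis rate at 0 min and 6.27% at 180 min.

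The separate arrays gave the spread between replicates that the table lacks. Intensities were quantile normalised within an assay, so a change is relative to the typical spot, and the mean over the 0 min arrays was set to 0 for each spot. On the 3 mRNA arrays at 0 min the medians over members were 0.09, -0.09 and -0.02 on the log2 scale. They were 0.63, 0.64 and 0.61 on the 30 min arrays and 0.82, 0.92 and 0.83 on the 60 min arrays. At 240 min they were 1.43, 1.32 and 0.86. That these later medians stand above 0 follows from the choice of members by mRNA change. Within the later times the third array was the lowest at 120, 180 and 240 min.

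The nascent arrays were less even early on. Their medians over members were -0.29, -0.05 and 0.40 on the 0 min arrays, 0.10, 0.36 and 0.24 on the 30 min arrays, and 0.34, 0.64 and 0.66 on the 60 min arrays. The 0.40 of replicate 3 at 0 min lay above all arrays at 30 min and above 1 at 60 min. From 120 min on, times whose synthesis change chose the members, the 9 medians lay between 0.50 and 0.98. In the 99 spots that were high in early and late mRNA change but not in late synthesis, the 3 nascent arrays at 0 min had medians of -0.28, 0.06 and 0.23. Replicate 3 was thus the highest and replicate 1 the lowest in that set too, while the eligible spots that were not members stayed near 0 on all of them. The 28 spots high in late mRNA and synthesis change but not in early mRNA change differed. Their medians at 0 min were 0.05, -0.11 and 0.14, with replicate 2 the lowest.

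**Figure D2:**
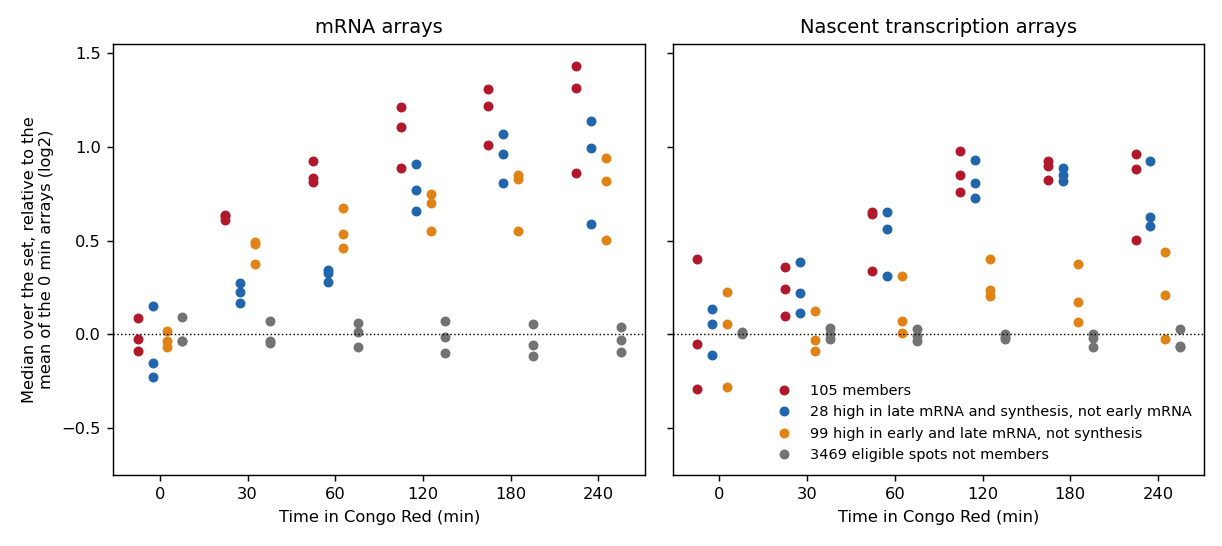
Median over each set of spots on each array, relative to each spot's mean over the 0 min arrays of the assay (log2), against time in Congo Red in minutes; each point is 1 array, with 3 arrays per time and the times drawn at even spacing. In nascent transcription the members' arrays at 0 min spread from -0.29 to 0.40 and overlap those at 30 and 60 min, and from 120 min on all lie at 0.50 or above.

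Nascent transcription at 30 and 60 min was the first measure tested, because the rule did not use it. It shares the 0 min nascent arrays with the late synthesis change, so a member whose 0 min intensity happened to be low was favoured by the choice and appears higher in these comparisons as well. At 30 min 1 member passed the test and it rose, 0 fell, and 10 lay under an unadjusted p of 0.05 (limma, Benjamini-Hochberg over 5113 spots, threshold 0.05). That member was the only spot called on the whole array, where 0.0196% of the spots tested were called and 109 had an unadjusted p under 0.05. With the replicate number as a block in the fit, 15 members and 194 of all spots had such a p, and 1 member was called. The median log2 change of members was 0.27, the lower and upper quartiles were 0.05 and 0.46, and 85 of 105 were above 0, against 50.9% of all spots tested. The median standard error of a member was 0.30 with 3 arrays at each time. All 3 arrays at 30 min lay above all 3 at 0 min in 18 members, or 17.1%, against 4.37% of spots measured on all 6 arrays, and all 3 lay below in 0 members, against 3.12%. Without replicate 1 at 0 min, the low one, the median of members was 0.15, and without replicate 3 at 0 min, the high one, it was 0.38.

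At 60 min the members' nascent transcription was higher again. The test passed 2 members, both of which rose, 0 fell, and 30 lay under an unadjusted p of 0.05 (limma, Benjamini-Hochberg adjusted). These 2 were also the only spots called among all tested, a share of 0.0391%, and 223 of all 5113 spots had an unadjusted p under 0.05. With the replicate block, 45 members and 369 of all spots had such a p. That fit called 3 members, and 0.117% of all spots. The median log2 change was 0.54, the quartiles were 0.35 and 0.71, and 102 of 105 members were above 0, against 50.9% of all spots. The 3 arrays at 60 min lay above the 3 at 0 min in 31 members, or 29.5%, against 4.31% of all spots, and below in 0, against 3.59%. The count of 2 became 1 in each of 6 fits that lacked a single array of the pair of times, and 0 with only the 6 arrays compared. Without replicate 3 at 0 min the median was 0.71 and without replicate 1 at 0 min it was 0.38.

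**Figure D3:**
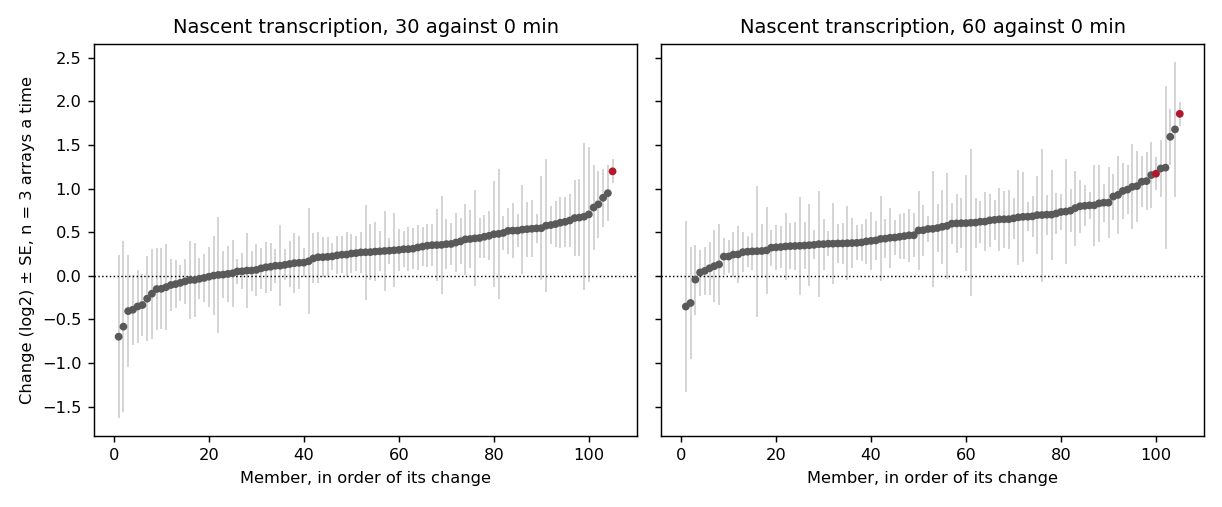
Log2 change in nascent transcription of each of the 105 members at 30 min (left) and 60 min (right) against 0 min, in order of size, with its standard error from limma over 3 arrays per time. Red points passed an adjusted p of 0.05, 1 member at 30 min and 2 at 60 min; 85 and 102 members lie above the dotted line at 0.

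The step from 30 to 60 min used no 0 min array. In nascent transcription 0 members passed the test (limma), 7 lay under an unadjusted p of 0.05, and 19 did so once the replicate number was a block, a fit that also called 0 members. Of all 5113 spots 0 were called, a share of 0%, while 125 had an unadjusted p under 0.05, and 263 in the blocked fit. The median log2 change was 0.28, and 94 of 105 members were above 0, against 51.2% of all spots. Taken by replicate number the members' medians were 0.29, 0.27 and 0.31, a mean of 0.29 ± 0.02 (SD, n = 3). The numbers did not pair all nascent arrays, as 14 of 45 pairs correlated at or under 0.1, so this SD depends on the matching. Without single arrays the median ran from 0.20 to 0.41. All 3 arrays at 60 min lay above all 3 at 30 min in 24 members, or 22.9%, against 3.94% of all spots, and in 0 members did they lie below, against 3.83%. No single member passed the threshold after adjustment at this step, while most of them lay above 0.

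In mRNA the same step was of a similar size. The rule chose by the mean mRNA change at 30 and 60 min and by the late mRNA change. It did not use the difference between 30 and 60 min, but the step is not independent of the choice. The test passed 0 members (limma), 9 lay under an unadjusted p of 0.05 and 20 did so with the replicate block, which passed 0 as well. The background share was 0%, and 38 of all 4882 spots had an unadjusted p under 0.05, or 197 in the blocked fit. The median was 0.25 and 92 members were above 0, against 50.9% of all spots. By replicate number the medians were 0.17, 0.34 and 0.24, a mean of 0.25 ± 0.09 (SD, n = 3). The arrays at 60 min lay above those at 30 min in 12 members, or 11.4%, against 1.9% of all spots, and below in 1 member, against 1.54%. Between the assays this step differed in 0 members by the interaction test (limma over all 36 arrays), with 0 under an unadjusted p of 0.05 in that fit and 0 with the block, and the share called of all 4805 spots was 0%, with 16 of them, or 96 in the blocked fit, at an unadjusted p under 0.05. The median difference, mRNA change less nascent change, was -0.02 and 51 of 105 members were above 0, against 49.4% of all spots. Without the block a member had a median standard error of 0.53, so the interaction could not resolve differences of the size of the step itself. With the block the errors were 0.33 for R14 - C10 : 16, 0.32 for R4 - C2 : 8, 1.10 for R1 - C12 : 4 and 0.97 for R1 - C19 : 1. Each of these was above the step's mRNA median of 0.25, but the errors of these named spots need not hold for the other members.

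Between 120 and 240 min the members' medians moved little in either assay. In mRNA 0 members passed (limma), 4 lay under an unadjusted p of 0.05 and 14 did so with the replicate block, which passed 0, and the background was 0%. Of all 4882 spots 61 had an unadjusted p under 0.05, and 261 in the blocked fit. The median was 0.05 and 60 members were above 0, against 48.1% of all spots. Its sign turned without 1 array: it was -0.07 without the third array of 120 min, -0.06 without the first of 240 min and 0.17 without the third of 240 min. All arrays at 240 min lay above those at 120 min in 2 members and below in 2, both 1.9% of the members, against 1.57% and 1.85% of all spots. In nascent transcription 0 members passed in this step, 3 had an unadjusted p under 0.05, as did 4 in the blocked fit, which passed 0, against a background of 0.0196%. Of all 5113 spots 84 had such a p, and 153 in the blocked fit. The median was -0.06 and ran from -0.16 to 0.07 when single arrays were left out, 43 of 105 members were above 0, against 45.4% of all spots, and the arrays lay apart upward in 1 member and downward in 5, or 0.952% and 4.76%, against 1.93% and 3.02%. The difference between the assays in this step had a median of 0.07 and was above 0 in 67 members, or 63.8%, against 51.55% of all spots. The share was 74.75% in spots high in early and late mRNA but not late synthesis. It was 82.1% in spots high in late mRNA and synthesis but not early mRNA. The difference passed the test in 0 members (limma, with an unadjusted p under 0.05 in 0, and in 1 of them in the blocked fit), with 0% of spots called. Of all 4805 spots 26 had such a p, or 103 in the blocked fit, and the median ran from -0.09 to 0.27 when single arrays were left out.

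The contrasts that chose the members are given beside these as values only. The choice of members favours calls in them, so nothing is read from their counts. In mRNA against 0 min the arrays gave the members medians of 0.55, 0.76, 1.04, 1.11 and 1.09 over the 5 later times. Those past the threshold numbered 0, 5, 27, 41 and 40, all upward (limma, adjusted p), where the share of all spots called upward was 0%, 0.102%, 0.696%, 1.39% and 1.37%. Unadjusted, 40 members lay under 0.05 at 30 min, as did 122 of all 4882 spots. The replicate numbers paired the mRNA arrays, and with them as a block the counts were 10, 41, 70, 86 and 84, where 0.225%, 1.54%, 4.36%, 7.87% and 7.37% of all spots were called upward. In nascent transcription against 0 min the medians were 0.83, 0.82 and 0.74 at 120, 180 and 240 min, with 17, 22 and 13 members past the threshold, all upward, and backgrounds of 0.763%, 1.13% and 0.724%.

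To see nascent transcription in spots that were not picked by it, the rule was also applied without its condition on synthesis, a choice made after the data had been seen. It then kept 204 spots, the 105 members and 99 others. Nascent transcription of the 204 against 0 min had medians of 0.11, 0.32, 0.48, 0.51 and 0.47 over the 5 later times. Past the threshold and upward were 1, 2, 17, 22 and 13 spots (limma, adjusted p), and 0 went downward. The shares of all spots called upward were 0.0196%, 0.0391%, 0.763%, 1.13% and 0.724%. At 120 min 190 of the 204 were above 0, against 51.8% of all spots. The 99 others had nascent medians of 0.02, 0.14, 0.28, 0.24 and 0.21, and in this fit 0 of them were called at any of the times, which the condition on late synthesis favours. At 120, 180 and 240 min 8, 7 and 4 of the 99 had an unadjusted p under 0.05, and the blocked fit called 0, 1 and 1 of them. Of all 5113 spots, 771, 661 and 647 had such a p, and the blocked fit called 3.32%, 2.78% and 2.89%.

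The nearest set by time was made of 28 spots that were among the 300 highest in late mRNA and late synthesis change but not in early mRNA change. In the deposited table their mRNA medians were 0.21 at 30 min and 0.38 at 60 min, by construction lower than in the members, and 0.83, 0.96 and 1.01 after that. Their synthesis medians of 0.30, 0.49, 0.74, 0.80 and 0.77 stood close to the members' 0.28, 0.59, 0.87, 0.87 and 0.83. On the arrays their nascent medians were 0.25 at 30 min and 0.47 at 60 min, beside 0.27 and 0.54 in the members, and 0 of the 28 passed the test at either time (limma, 3 and 9 under an unadjusted p of 0.05). Of the 28, 82.14% at 30 min and 96.43% at 60 min were above 0, beside 80.95% and 97.14% of the members. The difference between the sets was not tested.

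The member with the clearest early rise in transcription was R4 - C2 : 8, which had the highest early mRNA change of all eligible spots and the late mRNA change ranked 2. Its nascent intensity (normalised, log2) was 6.36, 6.32 and 6.56 on the 3 arrays at 0 min, 7.54, 7.66 and 7.64 on the 30 min arrays, 8.27, 8.29 and 8.25 on the 60 min arrays, and 9.23, 9.22 and 8.98 on the 120 min arrays. The arrays of each of these times lay apart from those of the time before, and the spread within a time was at most 0.14 (SD, n = 3). The log2 change from 0 min was 1.20 ± 0.14 (SE), or 2.29-fold, at 30 min (limma, adjusted p = 0.00156) and 1.86 ± 0.14, or 3.62-fold, at 60 min (limma, adjusted p = 4.83e-06). The spot was higher on 3 of 3 arrays at both times. When the fit held only the 6 arrays compared, the changes were 1.16 and 1.84 and no longer passed (limma, adjusted p = 0.608 and 0.074). From 30 to 60 min its change of 0.66 ± 0.14 had an adjusted p of 1.00 (limma), with an unadjusted p of 0.000228, and from 120 to 240 min the change was -0.54 ± 0.14 with an adjusted p of 1.00 (limma).

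Its mRNA differed more between the replicate numbers. The intensities were 4.95, 3.02 and 3.38 on the 0 min arrays, 5.65, 5.31 and 4.26 on the 30 min arrays, 6.23, 5.93 and 5.08 on the 60 min arrays and 7.61, 6.77 and 5.78 on the 120 min arrays. At 180 min they were 7.03, 6.86 and 5.88, and at 240 min 6.85, 6.64 and 5.45. As groups the arrays at 30 min overlapped those at 0 min, where replicate 1 was the high one, and those from 60 min on did not. Within each of the 3 replicate numbers the 30 min array was above the 0 min array. In the table its mRNA went from 0.263 at 0 min to 2.46 at 120 min and 1.53 at 240 min, and its synthesis rate from 0.0696 to 0.383 and 0.189.

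R14 - C10 : 16 had the highest late mRNA change of all eligible spots, 3.46 on the log2 scale in the table, and its mean mRNA intensity was highest at 240 min. Its mRNA intensities (normalised, log2) were 5.30, 4.74 and 4.80 on the 0 min arrays, 6.11, 5.88 and 5.77 on the 30 min arrays, 6.86, 6.39 and 6.87 on the 60 min arrays and 7.62, 7.46 and 7.33 on the 120 min arrays. They were 8.73, 8.51 and 8.07 on the 180 min arrays and 8.81, 8.65 and 8.19 on the 240 min arrays. Its place above 0 min in mRNA is what it was chosen for. Its nascent intensities were 5.48, 5.94 and 6.00 on the 0 min arrays, 6.07, 6.44 and 7.26 on the 30 min arrays and 5.90, 6.81 and 7.77 on the 60 min arrays, so that at 60 min 1 array still fell among those at 0 min. Within each replicate number the nascent arrays at 30 and 60 min were above the 0 min array. The nascent change was 0.78 ± 0.49 (SE) at 30 min and 1.02 ± 0.49 at 60 min, each with an adjusted p of 1.00 (limma). With the replicate block the error was 0.28 at both times. The unadjusted p was then 0.0150 at 30 min and 0.00299 at 60 min (limma). Neither change passed in that fit, with an adjusted p of 0.317 at 60 min. From 120 to 240 min its mRNA change was 1.08 ± 0.24 with an adjusted p of 1.00 and an unadjusted p of 0.000424 (limma), and with the replicate block the adjusted p was 0.0606.

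The other member that passed in nascent transcription at 60 min ranked 27 among eligible spots, and 22 among members, in late mRNA change. Its nascent intensity was 7.32, 7.83 and 7.77 on the 0 min arrays, 8.20, 8.17 and 8.11 on the 30 min arrays and 8.81, 8.95 and 8.68 on the 60 min arrays, with no overlap between the times. It rose by 1.17 ± 0.19 (SE), or 2.25-fold, at 60 min (limma, adjusted p = 0.0391). This call was lost in each of the 6 fits that lacked a single array of the pair of times, with cyclic loess and with only the 6 arrays compared. Its mRNA intensity was 6.30, 6.25 and 5.96 on the 0 min arrays and 7.52, 7.52 and 7.49 on the 60 min arrays, a difference that the rule used.

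At the other end, R1 - C12 : 4 and R1 - C19 : 1 had the lowest mRNA change from 120 to 240 min among the members, -1.26 ± 1.07 (SE) and -0.77 ± 0.76, and neither passed the test (limma, adjusted p = 1.00 for both). The mRNA intensity of R1 - C12 : 4 was 5.53, 4.42 and 1.70 on the arrays at 0 min and 7.08, 5.79 and 4.33 on the 120 min arrays, so the groups overlapped, while within each of the 3 replicate numbers the later array was the higher. In the nascent assay it was 5.89, 4.97 and 4.41 on the 0 min arrays and 5.40, 4.56 and 6.95 on the 30 min arrays. For R1 - C19 : 1 the mRNA intensity was 7.70, 6.26 and 6.13 on the 0 min arrays, 6.32, 5.95 and 8.63 on the 30 min arrays and 5.65, 8.28 and 7.71 on the 60 min arrays. In the table the mRNA of this spot went from 1.94 at 0 min to 6.38 at 60 min, but its arrays overlapped between these times. Replicate 1 was lower at 60 min than at 0 min and replicates 2 and 3 were higher. On the arrays the mRNA change at 60 min was 0.52 ± 0.76 (SE), or 1.43-fold (limma, adjusted p = 0.999).

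**Figure D4:**
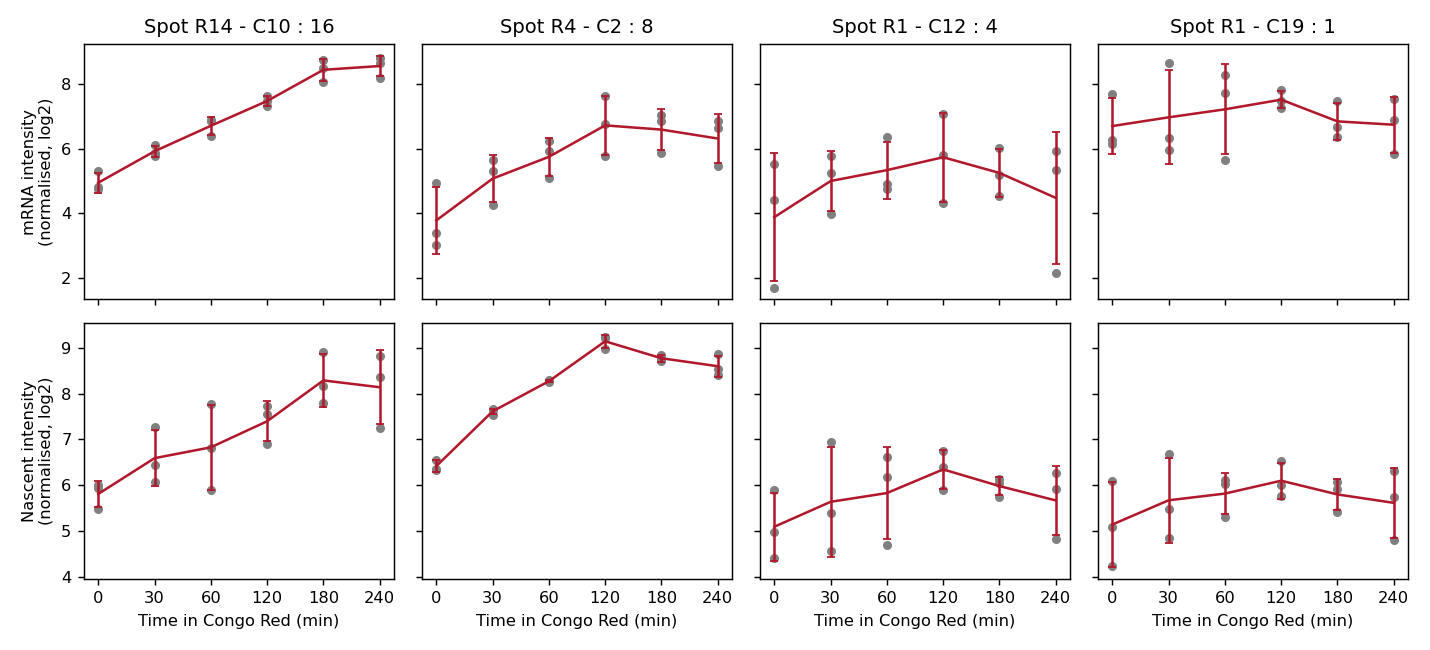
Normalised log2 intensity of 4 members on the mRNA arrays (top) and the nascent arrays (bottom) against time in Congo Red in minutes, at even spacing. Grey points are single arrays and the red line joins the means of 3 arrays with their SD; the nascent arrays of R4 - C2 : 8 are tight (SD 0.06 at 30 min), while the mRNA of R1 - C12 : 4 has an SD of 1.97 at 0 min.

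Both of those spots lie in block row 1, the first of 16 rows of blocks, and the members were not spread evenly over the rows. Row 1 held 16 of the 105 members, or 15.2%, against 5.40% of eligible spots, while the other rows held between 3 and 10 members each. The 177 eligible spots of row 1 that are not members also stood above the rest of the array on some comparisons with 0 min. Their nascent medians were 0.22, 0.04, 0.24, 0.06 and 0.21 over the 5 later times, where eligible non-members elsewhere lay between -0.06 and -0.01. In mRNA the row 1 medians were 0.17, -0.03, 0.16, -0.05 and 0.13, where the others lay between -0.057 and -0.0007. The part of array position in the choice of these members was not tested. In the other 89 members the nascent medians at 30 and 60 min were 0.23 and 0.55, beside 0.43 and 0.49 for the 16 in row 1, and both members called at 60 min lie elsewhere.

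**Figure D5:**
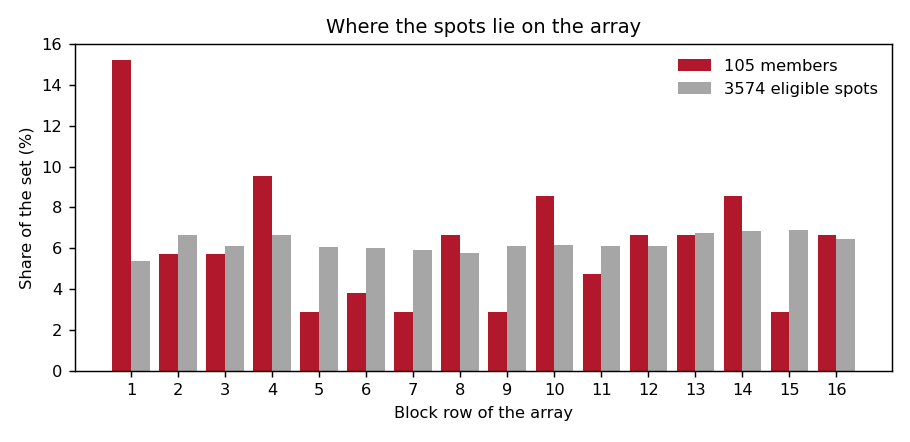
Share of the 105 members (red) and of the 3574 eligible spots (grey) in each of the 16 block rows of the array, in percent of each set. Row 1 holds 15.2% of the members and 5.40% of the eligible spots.

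Within blocks the members were scattered. They lay in 91 blocks, 14 of which held 2 members and none more, and all 16 printing positions held between 2 and 11 members. Positions 1, 5 and 14 held 11 members each, or 10.5%, against 6.16%, 6.74% and 7.61% of eligible spots. Position 16, with 5.34% of eligible spots, held 10 members, and position 13, with 7.61% of them, held 2. Whether neighbouring members belong to 1 gene is not known without gene names.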

How the data were processed

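The authors deposited a single intensity for every spot of each of the 36 arrays, without background values, flags or gene names. Their deposited table gives a signal for mRNA abundance and one for synthesis rate at each time, with the replicates already combined. Per the labels' protocols, cDNA was labelled with 33P-dCTP and run-on RNA with 33P-UTP. Scanning, background correction and table scaling are not described in the labels. The table has no SD.

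The members were computed from the table. Members, comparison sets and tests were chosen with earlier results of these data known. Zeros were treated as missing values and log2 was taken of the other intensities, without a pseudocount. Spots with at least 2 of 3 replicates above 0 in every group were kept and then quantile normalised within an assay (limma 3.58.1, R 4.3.3). Time was a factor over the 18 arrays of an assay, and the difference between assays was an interaction over 36 arrays with array weights. Moderated tests were adjusted by Benjamini-Hochberg over all spots, with a threshold of 0.05. A change shared by all spots is lost in this normalisation. Named spots were the 2 members with the highest late mRNA change and the 2 with the lowest mRNA change from 120 to 240 min. The design had foreseen gene names, and each spot was tested by itself instead.

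Replicate numbers were read from the numbering of the array files. Deviations from the group means of same-numbered arrays correlated between 0.61 and 0.81 in all 45 pairs of mRNA arrays, so the numbers paired them on the basis of the data. On the nascent arrays 14 of 45 pairs were at or under 0.1, with a range of -0.21 to 0.59. Other scalings, filters, membership limits, single arrays left out and the replicate block were tried as alternatives. Python 3.11.15, numpy 2.4.6, pandas 2.3.3 and matplotlib 3.10.9 made the tables and plots.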

Additional observations from a re-analysis of the deposited data

How the results depend on the processing

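The median nascent changes of members at 30 and 60 min against 0 min were above 0 under all 21 alternatives run for each, from 0.11 to 0.38 and from 0.32 to 0.71. The counts of calls were not as firm. With only the arrays compared in the fit, 0 members passed at 30 min and 0 at 60 min, and R4 - C2 : 8 had adjusted p-values of 0.608 and 0.074 (limma). At 60 min cyclic loess gave 1 call, leaving out single arrays gave 1 to 1, and the replicate block gave 3, where 0.117% of all spots were called. In the other comparisons whose difference the rule did not use, the block left the count of member calls as it was. In those it used, the block raised the mRNA counts as given above and the nascent counts at 120, 180 and 240 min from 17, 22 and 13 to 37, 37 and 29, where it called 3.32%, 2.78% and 2.89% of all spots. For the 204 spots chosen by mRNA alone it gave 1, 3, 37, 38 and 30 nascent calls over the 5 later times. The nascent median from 30 to 60 min was above 0 in all 21 alternatives but moved by more than the small spread between replicate numbers in many: 0.32 with printing positions centred, 0.39 for the 200 highest, 0.25 for the 400 highest, 0.21 with mean mRNA above its 40th percentile and 0.37 with no minimum. Choices made after seeing the data gave 0.34 with block rows centred, 0.36 for members outside block row 1 and 0.20 for members by mRNA alone. Without single arrays it ran from 0.20 to 0.41, the mRNA median from 120 to 240 min from -0.074 to 0.167, and the difference between assays from 30 to 60 min from -0.163 to 0.061. R1 - C12 : 4 ranged from -0.103 to 1.09 in nascent transcription at 30 min without single arrays, and turned below 0 without replicate 3 of that time. R4 - C2 : 8 ranged from -0.879 to 0.032 in mRNA from 120 to 240 min, and turned above 0 without replicate 1 at 120 min, at 0.031, and without replicate 3 at 240 min, at 0.032. The cause of these moves was not tested. The number of members was 73 to 138 under the 4 other limits. The precision is limited by 3 arrays per time, with a median standard error of a member of 0.30 to 0.53 without the replicate block. With the block the mRNA error went from 0.61 to 0.29 in R4 - C2 : 8 and from 0.24 to 0.16 in R14 - C10 : 16. It went from 1.07 to 0.85 in R1 - C12 : 4 and rose from 0.76 to 0.79 in R1 - C19 : 1.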
